A study of Mus musculus with 12 samples.

Results

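Macrophages stimulated with LPS and IFNγ in the presence of emodin were compared, over all genes, with unstimulated macrophages, to find which activation remained with emodin and what was new. The comparison used 8 of the 12 arrays of the study: the 4 titled for LPS, IFNγ and emodin, and the 4 titled as control. The other 4 arrays, of LPS and IFNγ alone, defined what activation is in these cells. All cells were wild-type peritoneal macrophages of C57BL/6 mice that had attached to plastic and spent a night without serum. The emodin-treated group received LPS at 100 ng/ml, IFNγ at 20 ng/ml and emodin at 50 μM for 20 h, and came from mice labelled female and aged 9 weeks. The group given LPS and IFNγ alone differed from it, by the labels, only in the absence of emodin. The control group received vehicle for the same 20 h and came from mice aged 8 weeks, of which replicates 1 and 2 were labelled female and replicates 3 and 4 male. The series title asks whether emodin inhibits classical activation of macrophages.

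LPS, a component of the outer membrane of Gram-negative bacteria, signals through Toll-like receptor 4 to NF-κB, MAP kinases and the interferon regulatory factors. IFNγ signals through its receptor and Janus kinases to GAS elements in target promoters, and raises IRF1 and the interferon-inducible GTPases. Together they drive classical activation, with nitric oxide synthesis, inflammatory cytokines, antigen presentation and a shift to glycolysis. Emodin is a plant anthraquinone known as a kinase inhibitor.

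Signal is given as a level: log2 of the background-subtracted processed signal minus the 75th percentile of the array, so a difference of 1 is 2-fold. That percentile lay between 435 and 547 on emodin arrays, 745 and 969 on control arrays, and 764 and 951 on arrays of LPS and IFNγ alone. Its subtraction leaves the median gene at a difference of 0.02, so changes are relative to the bulk of genes. All 12 tested macrophage markers were above background on all arrays. The design text of the series speaks of leukocytes of the blood, where the sample labels give peritoneal macrophages. Of the 13 neutrophil markers matched, Csf3r, Elane, S100a8, Lcn2, Mmp8 and Camp were above background on all control and emodin arrays, with mean control levels from 6.18 for Csf3r to -3.42 for Camp. Ngp was not above background on any array. The 8 stimulated arrays share a slide and the controls lie on another, scanned separately, so slide, age and stimulation cannot be told apart in any difference from control. Spike-in RNA, added in a fixed amount before labelling, gave a mean log2 signal of 8.42 to 8.73 on the control slide and 10.4 to 10.7 on the other, and was not used for scaling. On 4 arrays sex-linked genes went against the labels. Xist, expressed from the inactive X chromosome, stood between -0.26 and 0.18 on all 4 control arrays, including the 2 labelled male, and at -6.26 and -6.22 on replicate 3 of each stimulated group, labelled female. The labels do not say which samples came from separate animals, so the spread behind each p-value may be technical.

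Of 13168 genes tested, 5241 were called higher with emodin than in control (39.8% of genes tested) and 5025 lower (38.2%), at a limma adjusted p under 0.05. At 2-fold or more these were 2352 genes higher (17.9%) and 2714 lower (20.6%). The 4 emodin arrays did not overlap the 4 control arrays for 9556 genes (72.6%), so arrays that stay apart are the rule here and not a mark of any one gene. Without replicate 3 of both stimulated groups 5129 genes were called higher and 4875 lower, and with the controls labelled female alone 5000 and 4953. LPS and IFNγ alone against the same controls gave 4425 genes higher (33.6%) and 4673 lower (35.5%). Emodin added to the stimulus gave 4814 genes higher (36.6%) and 4693 lower (35.6%) than the stimulus alone. With the replicate number as a block these were 4901 and 4739. Counts of list members called below are to be read beside the shares given here for all genes.

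Most of the activation programme was still raised above control in the presence of emodin, at a reduced size for many cytokines and chemokines and near its full size for some of the GTPases induced by IFNγ. LPS and IFNγ alone were called higher than control for 1863 genes at a fitted difference of 2-fold or more. Of these, 1417 were also called higher than control with emodin, with a median difference from control of 1.93 against 1.95 without emodin. The 1417 were selected by that call, so their near-equal medians do not show activation kept at full size. The call sets no size, and Ereg and Serpinb9, described below with the genes that lost their activation, are among them. Of the 1417, 11 were not above background on any array of the stimulus alone and 18 on any emodin array, so their differences rest on signal near background, and 1388 were in neither set. Among the 1417 genes, emodin arrays were called lower than arrays of the stimulus alone for 604, higher for 387 and not different for 426. This split was not repeated under other scaling. A further 243 of the 1863 genes were not called different from control with emodin, with a median difference of 0.01, and 203 were called below control, with a median of -1.39. On no emodin array were 68 of the 243 and 78 of the 203 above background. These counts depended on the treatment of dim probes. The 243 became 872 without a filter, 113 with probes above background on all 12 arrays and 146 with probes detected in emodin or control, and the 203 became 97 with normexp background correction and 93 with probes above background on all 12 arrays. Both differences share the 4 control arrays, so these counts describe the groups side by side.

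The 24 tested IFNγ-inducible GTPases and regulators, which attack the vacuoles of intracellular microbes or shape interferon signalling, all rose with emodin, by a median of 5.31 against 5.56 for the stimulus alone. Of the 24, 13 were lower with emodin than with the stimulus alone, 4 higher and the rest not called different. Gbp5, a guanylate-binding protein that promotes inflammasome assembly, had levels of 7.75, 7.33, 7.53 and 7.26 on the 4 emodin arrays and -2.49, -2.51, -2.17 and -2.05 on the controls. On the arrays of the stimulus alone it stood at 7.31, 7.34, 7.47 and 7.25. The emodin and stimulus-only arrays overlap and both lie far above every control array. Its difference from control was 9.77 ± 0.13 (log2, SE, 4 arrays per group, limma adjusted p = 2.01e-13), and the difference between the stimulated groups was 0.12 ± 0.13. Tgtp2, a T-cell-specific GTPase of the same IFNγ response, rose by 8.87 ± 0.18 (limma adjusted p = 3.88e-12). Its difference between the stimulated groups was -0.38 ± 0.18, not called at a limma adjusted p of 0.0795 and called at 0.0265 with the replicate number as a block. Gbp4 was below background throughout the control group and at least 230.2-fold higher with emodin, and 2.65 ± 0.17 lower than with the stimulus alone. Socs1, which feeds back on Janus kinases, rose by 4.50 where the stimulus alone gave 6.81, and Irf1, the factor that carries the IFNγ signal to later genes, by 5.72 against 5.08.

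Promoters are shown for genes that kept their full response, together with Serpinb2, which lost it, and Hamp, which was above background on emodin arrays only. Each runs from 250 bases before to 50 bases after the annotated start, from RefSeq on build GRCm38.p6, written 5′ to 3′ on the gene's strand. Capitals mark GAS matches (TTCNNNGAA), ISRE cores (TTTC, any 2 bases, TTTC) and κB matches, searched on both strands. Where matches overlap, their capitals run together.
Gbp5, chr3:142496684-142496983, plus strand: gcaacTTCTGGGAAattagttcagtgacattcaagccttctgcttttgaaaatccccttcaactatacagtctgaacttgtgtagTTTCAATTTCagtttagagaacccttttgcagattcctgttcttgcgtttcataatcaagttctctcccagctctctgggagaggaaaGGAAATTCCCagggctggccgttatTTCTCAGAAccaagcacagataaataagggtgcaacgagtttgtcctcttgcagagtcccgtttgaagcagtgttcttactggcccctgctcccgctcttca
Tgtp2, chr11:49064163-49064462, minus strand: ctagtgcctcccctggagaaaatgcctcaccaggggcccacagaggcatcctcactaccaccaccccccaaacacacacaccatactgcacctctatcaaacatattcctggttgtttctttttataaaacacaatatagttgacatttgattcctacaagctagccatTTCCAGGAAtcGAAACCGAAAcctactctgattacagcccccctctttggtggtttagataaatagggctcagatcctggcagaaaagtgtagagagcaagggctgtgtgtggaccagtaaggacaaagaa
Serpina3f, chr12:104214383-104214682, plus strand: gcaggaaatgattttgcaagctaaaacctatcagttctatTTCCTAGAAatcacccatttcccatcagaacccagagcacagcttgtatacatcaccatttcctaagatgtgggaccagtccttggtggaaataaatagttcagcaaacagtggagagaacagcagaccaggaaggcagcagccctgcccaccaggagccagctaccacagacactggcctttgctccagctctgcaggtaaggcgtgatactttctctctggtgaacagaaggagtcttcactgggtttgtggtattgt
Serpinb2, chr1:107511260-107511559, plus strand: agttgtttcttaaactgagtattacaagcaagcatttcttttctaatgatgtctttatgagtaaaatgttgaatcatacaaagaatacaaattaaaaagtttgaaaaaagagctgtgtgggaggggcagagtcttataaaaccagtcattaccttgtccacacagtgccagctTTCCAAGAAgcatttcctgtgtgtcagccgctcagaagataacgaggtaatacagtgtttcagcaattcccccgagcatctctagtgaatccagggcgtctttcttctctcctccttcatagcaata
Hamp, chr7:30943980-30944279, minus strand: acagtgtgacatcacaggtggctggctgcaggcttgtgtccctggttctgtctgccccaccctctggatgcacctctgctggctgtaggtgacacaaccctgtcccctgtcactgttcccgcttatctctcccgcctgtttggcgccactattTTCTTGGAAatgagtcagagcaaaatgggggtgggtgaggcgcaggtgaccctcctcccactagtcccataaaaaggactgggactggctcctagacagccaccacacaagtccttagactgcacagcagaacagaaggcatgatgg

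The Gbp5 window holds 2 GAS matches, 1 ISRE core and 1 κB match, and the Tgtp2 window 1 GAS match and 1 ISRE core. Serpina3f, Serpinb2 and Hamp each have 1 GAS match, so the match occurs in a gene that kept its response and in one that lost it. Of the 10 most strongly raised genes that kept their response in full, 8 had promoters in the table, and 5 of these 8 genes (62.5%) held a GAS match and 4 (50%) an ISRE core. Over all 27025 genes with a promoter the shares were 9.55% and 3.99%. The 5 genes with a GAS match were Gbp5, Tgtp1, Tgtp2, Serpina3f and Serpina3i, and Tgtp1 and Tgtp2 also hold an ISRE core. Tgtp1 and Tgtp2, and the Serpina3 genes, are close copies, so their matches are not independent. Of 9 genes that lost their response, 1 (11.1%) held a GAS match, which is Serpinb2, and 1 an ISRE core. Genes with more than 1 promoter window are counted once, since the windows can overlap. A match is a run of letters and not a measured site.

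**Figure D1:**
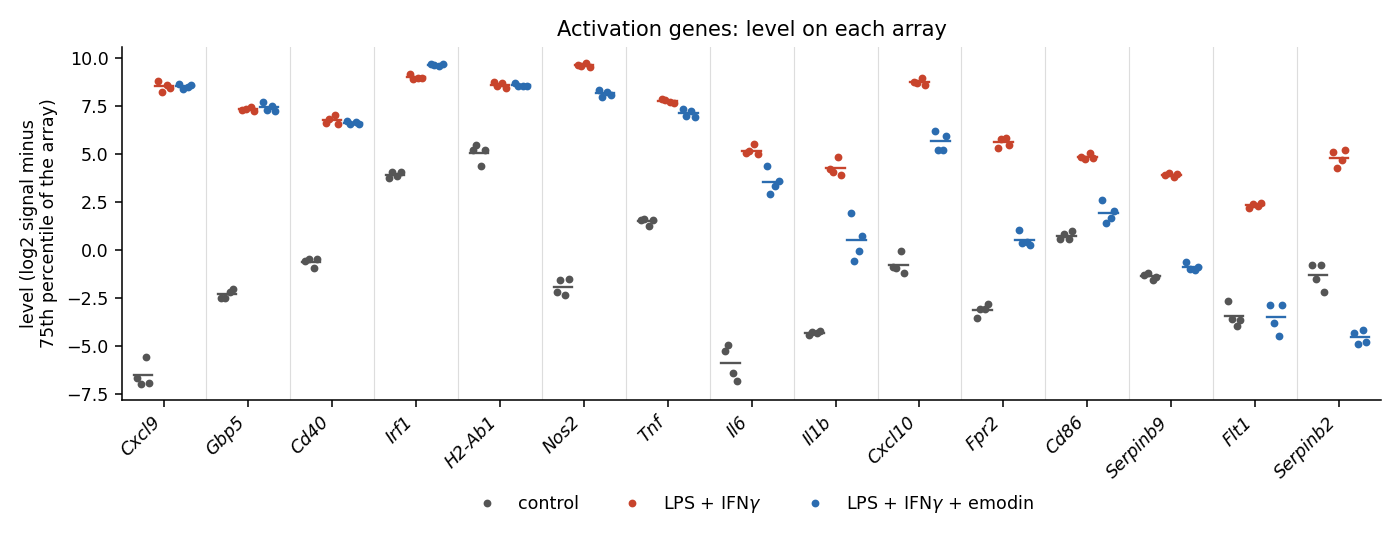
Level on each array (log2 processed signal minus the 75th percentile of the array) for 15 activation genes. Points are the 4 arrays of a group and lines their means. From Cxcl9 to H2-Ab1 the emodin arrays stand at or near the arrays of the stimulus alone, from Nos2 to Cd86 they lie between those and control, and for Serpinb9, Flt1 and Serpinb2 they stand within 1 unit of control or below it.

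Among 242 genes that the stimulus alone raised 16-fold or more, 43 kept their response in full, in that the 95% interval of the difference between the stimulated groups lay within 1 log2 unit. Cxcl9, the IFNγ-induced chemokine that attracts T cells through CXCR3, was not above background on any control array and reached levels of 8.64, 8.42, 8.50 and 8.61 with emodin. It reached 8.82, 8.25, 8.60 and 8.46 with the stimulus alone. The stimulated groups overlap, and the emodin arrays were at least 11450-fold above control (limma adjusted p = 9.64e-13). Serpina3f, a serine protease inhibitor, was at least 2553-fold higher than control, with a difference of -0.07 ± 0.12 between the stimulated groups. Inhba, the subunit of activin A, rose by 8.33 ± 0.16, Hcar2, a receptor for nicotinic acid and β-hydroxybutyrate, by 8.63 ± 0.15, and Calhm6, a channel protein of activated macrophages, by 8.25 ± 0.10. Calhm6 and Hcar2 stood 0.46 and 0.48 above the stimulus alone, and both differences were called (limma adjusted p = 0.00164 and 0.0109). Gbp6, Tgtp1, Tgtp2 and Serpina3i complete the 10 by size. With the replicate number as a block, Inhba (0.30, limma adjusted p = 0.0203) and Serpina3i (-0.21, limma adjusted p = 0.0487) were also called different between the stimulated groups. Tgtp1 and Tgtp2, and the Serpina3 genes, are close copies of one another, and whether each probe reads 1 copy was not tested.

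Classical activation markers kept their direction: 17 of 20 tested rose with emodin and 1 fell, with a median difference of 4.92 against 6.91 for the stimulus alone. Against the stimulus alone 17 of the 20 were lower with emodin. Nos2, the inducible nitric oxide synthase, had levels of 8.36, 8.01, 8.24 and 8.06 with emodin, -2.16, -1.57, -2.33 and -1.52 in control, and 9.63, 9.60, 9.74 and 9.56 with the stimulus alone. The 3 groups do not overlap. Nos2 rose by 10.06 ± 0.17 from control (limma adjusted p = 8.68e-13) and was 1.46 ± 0.17 below the stimulus alone (limma adjusted p = 9.15e-06). Ptgs2, the inducible cyclooxygenase of prostaglandin synthesis, was not above background in control, at least 909.5-fold higher with emodin, and 1.80 ± 0.28 below the stimulus alone. Acod1, which makes itaconate from a citric acid cycle intermediate, rose by 5.95 ± 0.16, and Cd40, the costimulatory receptor for T-cell help, by 7.24 ± 0.12 with no called difference between the stimulated groups (-0.14 ± 0.12).

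Other classical markers kept little of their rise. Cd86, a costimulatory ligand for CD28, had levels of 2.63, 1.41, 1.66 and 2.03 with emodin, 0.58, 0.83, 0.57 and 1.02 in control, and 4.88, 4.75, 5.05 and 4.80 with the stimulus alone. The emodin arrays clear the controls by a narrow margin, with a difference of 1.18 ± 0.22 (limma adjusted p = 0.000325). Fpr2, a receptor for formyl peptides and resolvins, rose by 3.64 ± 0.19 and was 5.08 ± 0.19 below the stimulus alone. Il27, a cytokine subunit, and Marco, a scavenger receptor, did not pass the test, with differences from control of 0.26 and -0.47. Cd80, the other CD28 ligand, fell by 1.84.

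Among inflammatory cytokines and their receptors, 23 of 30 tested rose with emodin and 1, Il18, fell. The median was 1.80 against 3.42 for the stimulus alone, and 21 of the 30 were lower with emodin than without it. Tnf, the early cytokine of LPS responses, had levels of 7.36, 7.0, 7.26 and 6.92 with emodin and 1.56, 1.62, 1.28 and 1.59 in control. It rose by 5.62 ± 0.11 (limma adjusted p = 2.6e-12), 0.64 ± 0.11 short of the stimulus alone. Il6, an inducer of the acute-phase response, was not above background in control and was at least 364.7-fold higher with emodin, 1.62 ± 0.40 below the stimulus alone. Il1b, the pyrogenic cytokine released through inflammasomes, spread widely, with 1.95, -0.58, -0.05 and 0.74 on the emodin arrays against -4.41, -4.24, -4.35 and -4.22 in control and 4.21, 4.08, 4.84 and 3.93 with the stimulus alone. No array of one group reached another, and Il1b rose by 4.82 ± 0.43 (limma adjusted p = 5.68e-07). Tnfsf15, a TNF family ligand that costimulates T cells, rose by 7.37 ± 0.22.

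Chemokines went in both directions, with 14 of 22 tested rising, 4 falling and 4 not passing the test. Cxcl10, the second CXCR3 ligand on the list, rose by 6.43 ± 0.26 and was 3.10 ± 0.26 lower than with the stimulus alone. Ccl5, which attracts T cells and monocytes, rose by 5.85 ± 0.22 and was 2.02 ± 0.22 lower. The monocyte attractants Ccl2 and Ccl7 rose by 3.35 and 2.01 where the stimulus alone gave 6.66 and 7.40. Cxcl1, a neutrophil attractant, rose by 4.12 ± 0.29. Its difference of 0.60 ± 0.29 from the stimulus alone was not called (limma adjusted p = 0.0852) but was with the replicate number as a block (limma adjusted p = 0.021). Falls were seen for Ccl6, Ccl9, Cxcl14 and Cxcl5, and Cxcl5 is described with the genes new to emodin.

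Of the 28 NF-κB target genes and regulators, 27 rose and none fell, by a median of 2.31 against 2.64 for the stimulus alone. Icam1, the endothelial and leukocyte adhesion ligand of LFA-1, rose by 4.50 ± 0.13, Traf1, an adaptor of TNF receptors, by 3.99 ± 0.14, and the inhibitors Nfkbia and Tnfaip3 by 2.71 and 2.65. Nfkbia and Tnfaip3 carry the negative feedback of the pathway. Against the stimulus alone, 12 of the 28 were lower with emodin and 6 higher, where all genes gave 35.6% and 36.6%. Irak3, an inhibitor of Toll-like receptor signalling that the stimulus alone raised by 1.95, stood 0.06 from control with emodin and did not pass the test.

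All 33 tested interferon-stimulated antiviral genes rose with emodin, by a median of 2.68, but 31 of them were lower than with the stimulus alone, where the median was 4.43. Ifit1, which binds viral RNA lacking cap methylation, had levels of 3.40, 2.31, 2.92 and 2.87 with emodin, -2.20, -1.77, -1.56 and -1.92 in control, and 4.57, 4.65, 5.0 and 4.62 with the stimulus alone. These groups do not overlap. It rose by 4.73 ± 0.21 from control (limma adjusted p = 1.17e-09). Ifit2 rose by 6.49 ± 0.24 and Isg15, the ubiquitin-like modifier, by 5.81 ± 0.18. Ifi44 was at least 37.6-fold above control with emodin and at least 603-fold with the stimulus alone.

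Antigen presentation also remained. In the class I pathway 17 of 20 tested genes rose and none fell, by a median of 1.27 against 1.51 for the stimulus alone. Tap1, a subunit of the peptide transporter, rose by 5.04 ± 0.09 and stood 0.44 ± 0.09 above the stimulus alone, while Nlrc5, the transactivator of class I genes, rose by 3.08 ± 0.17 and stood 1.08 ± 0.17 below it. In the class II pathway 10 of 12 rose. H2-Ab1, the β chain of I-A, had levels of 8.70, 8.57, 8.55 and 8.56 with emodin, 5.24, 5.47, 4.37 and 5.24 in control, and 8.77, 8.54, 8.69 and 8.47 with the stimulus alone. It rose by 3.51 ± 0.19 (limma adjusted p = 7.03e-09), and the stimulated groups, which overlap, differed by -0.02 ± 0.19. Ciita, the class II transactivator, rose by 2.89 ± 0.17 and was 1.16 ± 0.17 lower than with the stimulus alone. H2-Oa, a modulator of peptide loading known from B cells and dendritic cells, rose by 3.19 ± 0.38.

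Glycolysis and hypoxia genes rose nearly throughout, 28 of 30 tested with 2 falling, by a median of 1.57 against 1.75. Hk2, the inducible hexokinase, rose by 3.73 ± 0.09 and Bnip3, a hypoxia-induced mitophagy receptor, by 3.56 ± 0.17. P4ha1, a collagen prolyl hydroxylase subunit under hypoxia control, had levels of 3.40, 3.35, 3.56 and 3.27 with emodin and -0.27, -0.37, -0.27 and -0.18 in control. It stood 1.58 ± 0.10 above the stimulus alone (limma adjusted p = 5.5e-08). The falls were Aldoc and Car9. Oxidative phosphorylation and citric acid cycle genes counted 12 of 30 up and 10 down, near the 39.8% and 38.2% of all genes, with a median of -0.08. Under quantile normalisation 6 rose and 19 fell, and with the percentile over detected probes 9 rose and 16 fell. The largest changes in that list were falls. Idh1, a cytosolic isocitrate dehydrogenase and not itself an enzyme of the cycle, fell by 4.08 ± 0.12 and Idh2 by 1.71 ± 0.16. Suclg2, a succinyl-CoA ligase subunit, was at least 13.3-fold lower with emodin.

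Genes whose activation was lost with emodin included an inhibitor of plasminogen activators, a growth factor and a growth factor receptor. Of the 242 genes raised 16-fold or more by the stimulus alone, 27 had a 95% interval of the difference from control below 1 log2 unit with emodin. Serpinb2, plasminogen activator inhibitor 2, had levels of 5.12, 4.26, 4.70 and 5.22 with the stimulus alone and -0.77, -1.53, -0.76 and -2.16 in control. It was not above background on any emodin array, at least 7.76-fold below control and at least 543.6-fold below the stimulus alone. Flt1, a receptor for vascular endothelial growth factor, stood at -2.87, -3.80, -4.50 and -2.87 with emodin and -2.67, -3.57, -3.95 and -3.63 in control, which overlap, and at 2.18, 2.41, 2.30 and 2.48 with the stimulus alone. Its difference from control was -0.05 ± 0.35 with emodin and 5.80 ± 0.35 without.

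Serpinb9, an inhibitor of granzyme B, rose by 0.49 ± 0.10 with emodin (limma adjusted p = 0.000844) against 5.28 ± 0.10 without. Slamf6, a receptor of the SLAM family, fell by 0.42 ± 0.11 where the stimulus alone gave a rise of 4.89. With normexp background correction Slamf6 instead stood 0.42 above control and was called (limma adjusted p = 0.000603). Ereg, a ligand of the EGF receptor, Dbx2, Ms4a4d, Rgs17 and Sprr2d were not above background on any array of control or emodin and above it on all 4 arrays of the stimulus alone, where Ereg was at least 15.3-fold above control. For those 5 genes no fold between emodin and control is given. Inava, known for a role in intestinal epithelial junctions and innate signalling, was above background on 2 control arrays and on no emodin array.

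**Figure D2:**
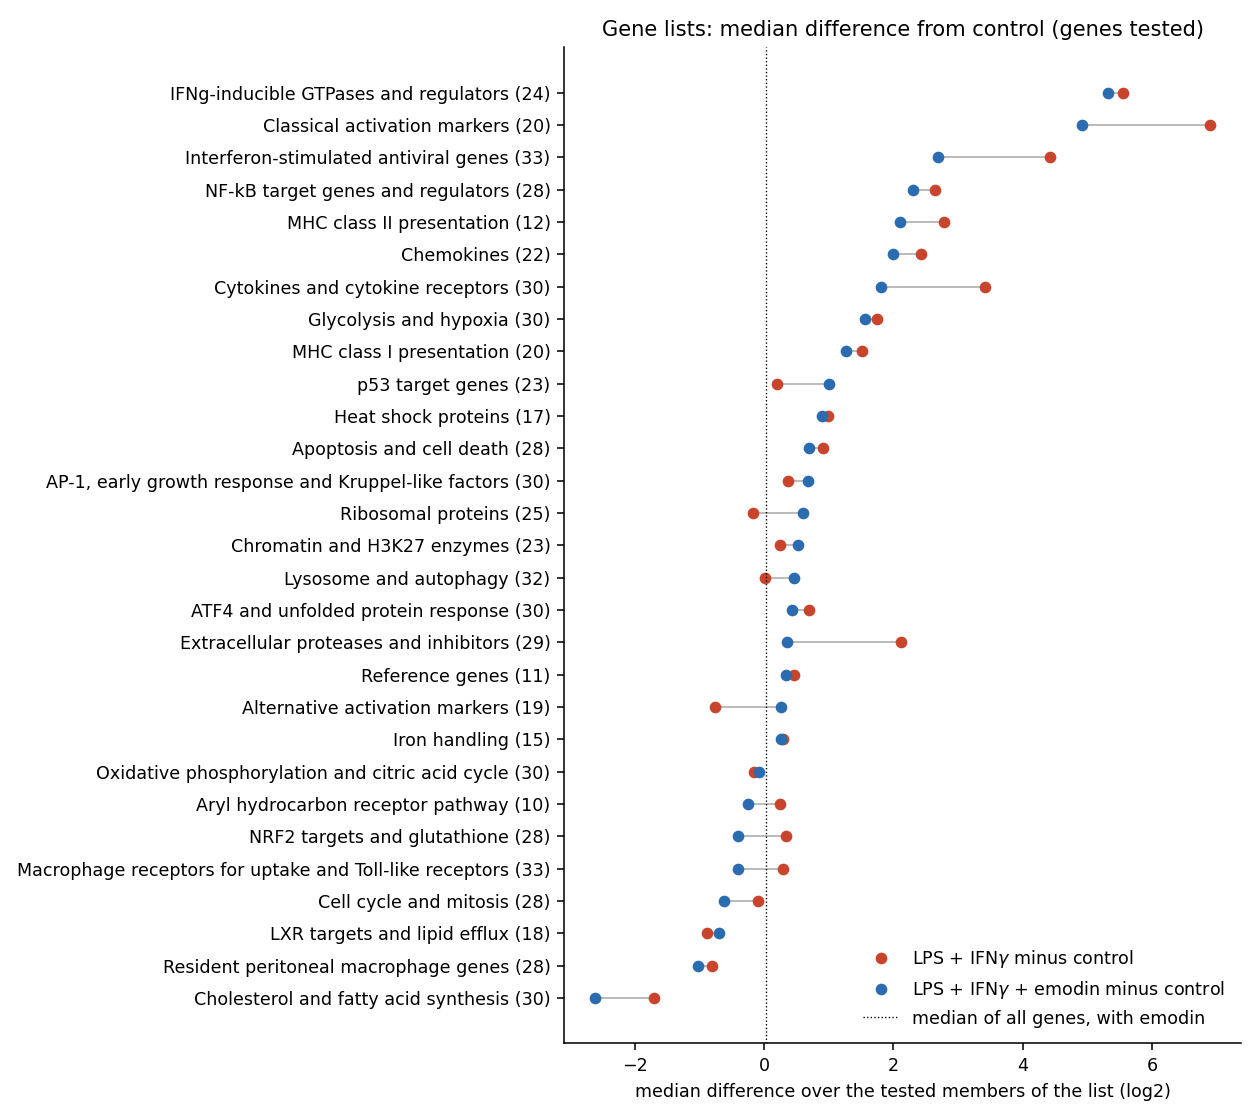
Median difference from control (log2) over the tested members of each of 29 function lists, without emodin (red) and with emodin (blue), with the number of genes tested in brackets. The dotted line is the median of all genes with emodin (0.02). IFNγ-inducible GTPases reach 5.31 with emodin and cholesterol and fatty acid synthesis genes -2.62.

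Of the genes new with emodin, meaning changed 2-fold or more against both other groups while the stimulus alone stayed under 2-fold, 596 were higher and 970 lower. The 10 new genes that rose most by the smaller of the 2 differences share no pathway list used here. Tmem184a, a transmembrane protein known as a heparin receptor, had levels of -0.20, -0.15, -0.14 and -0.27 with emodin, and Dppa4, a chromatin protein of pluripotent cells, -0.61, -0.82, -0.71 and -0.77. Neither was above background on any array of the other groups, so that Tmem184a was at least 26.9-fold and Dppa4 at least 18.6-fold higher than in control. Cdo1, which oxidises cysteine in taurine synthesis, had levels of 1.68, 1.26, 1.69 and 1.62 with emodin, -3.70, -3.12, -2.74 and -3.72 in control, and -3.82, -4.17, -3.77 and -3.99 with the stimulus alone. Its rise from control was 4.88 ± 0.20 (limma adjusted p = 7.78e-10). Rasd2, a Ras-like GTPase known from striatum, rose by 4.85 ± 0.18, Gnal, an olfactory G protein α subunit, by 3.97 ± 0.16, and the histone gene H4c17 by 4.35 ± 0.24. Gm13580 rose by 5.01 ± 0.24, and Ecel1, a membrane endopeptidase of neurons, was at least 6.20-fold higher.

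Single probes decide 2 of these genes. Rxra, the retinoid X receptor that pairs with LXR, PPAR and retinoic acid receptors, rose by 4.20 ± 0.13 at the brighter probe, while its other kept probe gave 0.21. Rasgrp4, an exchange factor for Ras in mast cells and myeloid cells, rose by 4.05 ± 0.08 at the brighter probe and gave -2.84 at the other. With the mean of the probes Rasgrp4 stood 0.61 above control and was not called (limma adjusted p = 0.102). Arnt, the partner of the aryl hydrocarbon receptor and of HIF1α, likewise gave 3.06 ± 0.08 at one probe and 0.13 at the other.

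Other genes rose with the stimulus alone and further with emodin, or rose strongly with emodin without meeting the rule for new genes. Hamp, which encodes hepcidin, the hormone that blocks iron export by ferroportin, had levels of 3.45, 3.13, 3.94 and 4.24 with emodin and was not above background on any other array. It was at least 396.9-fold above control and at least 248.7-fold above the stimulus alone. Ubd, the ubiquitin-like modifier FAT10, was at least 1599-fold above control with emodin, with levels of 5.89, 5.58, 5.94 and 5.39 against 4.07, 2.91, 2.92 and 3.38 with the stimulus alone. All 4 emodin arrays lie above those of the stimulus alone, by 2.38 ± 0.26 in the mean. Ccl12, a ligand of CCR2, was at least 783-fold above control and 1.08 ± 0.21 above the stimulus alone, and Ccl22, a ligand of CCR4 often counted as an alternative activation marker, was at least 11.0-fold above control. Hmox1, haem oxygenase 1, rose by 2.96 ± 0.11 from control and stood 1.19 ± 0.11 above the stimulus alone.

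**Figure D3:**
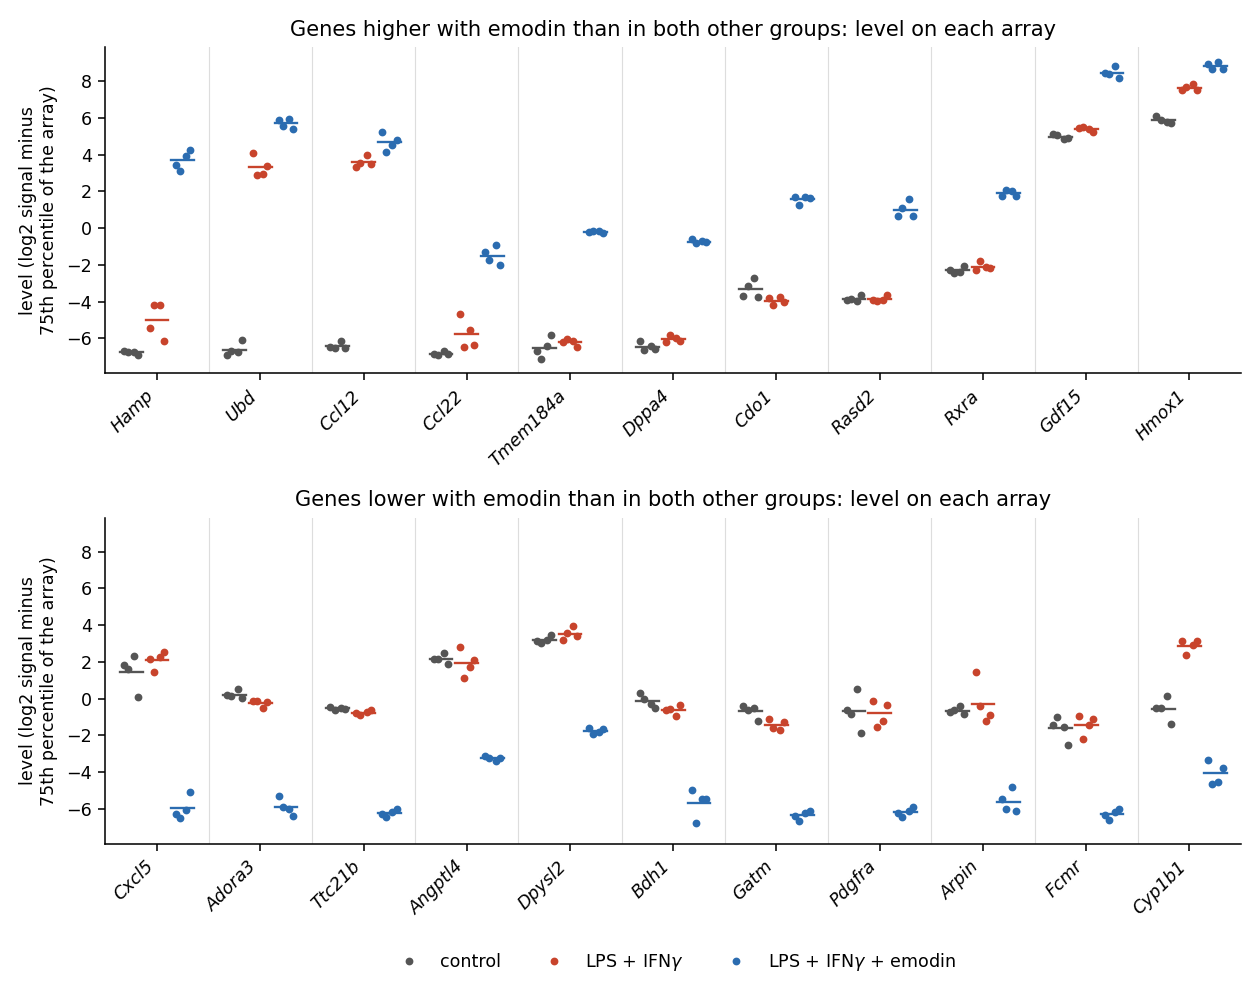
Level on each array (log2 processed signal minus the 75th percentile of the array) for 11 genes higher and 11 genes lower with emodin than in both other groups. Points are arrays and lines group means. Signals not above background are drawn at their measured level. Hamp, Tmem184a and Dppa4 are above background on the emodin arrays and on no other array.

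Among the genes new and lower with emodin, Cxcl5, a neutrophil attractant made by epithelial cells and macrophages, was not above background on any emodin array. It had levels of 1.80, 1.59, 2.29 and 0.08 in control and 2.15, 1.42, 2.26 and 2.53 with the stimulus alone, so that emodin arrays were at least 53-fold below control (limma adjusted p = 1.89e-08). Adora3, an adenosine receptor of myeloid and mast cells, was at least 22.6-fold lower, and Bdh1, a mitochondrial enzyme of ketone body use, at least 17.7-fold lower. Angptl4, a secreted inhibitor of lipoprotein lipase, had levels of -3.13, -3.25, -3.40 and -3.24 with emodin against 2.14, 2.13, 2.47 and 1.88 in control. It fell by 5.41 ± 0.28 (limma adjusted p = 4.27e-09). Dpysl2, a regulator of microtubules, fell by 4.95 ± 0.15. Ttc21b, a component of ciliary transport, Arpin, an inhibitor of the Arp2/3 complex, and Gatm, an enzyme of creatine synthesis, were at least 13.4-fold, 12.4-fold and 12.1-fold lower.

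The other 2 of the 10 are known from cell types besides macrophages. Pdgfra, a growth factor receptor of fibroblasts, was at least 12-fold lower than in control, and Fcmr, the IgM receptor of B cells, at least 6.32-fold lower. Of the 12 tested markers of mesothelial cells and fibroblasts, 10 fell with emodin and 1 rose, and their mean, after each marker was centred on its control mean, stood at -1.24, -2.85, -2.63 and -1.88 on the emodin arrays against 0.10, 0.11, 0.66 and -0.88 in control. Upk1b and Krt8 were not above background on any emodin array, while Dcn, Pdpn and the collagen genes Col1a1, Col1a2 and Col3a1 were above it on all 4. Of the 4 tested B cell markers 3 fell, and their mean centred in the same way stood between -2.48 and -2.03 with emodin and between -0.56 and 0.53 in control. Ms4a1 was not above background on any emodin array. The differences of these means, -2.15 and -2.24, each had an exact two-sided permutation p of 0.0286, which is the lowest value possible with 4 arrays per group. In these bulk samples fewer cells of a type and less RNA per cell cannot be told apart, and the part of these cells in the falls of Pdgfra and Fcmr was not tested.

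Macrophage markers differed by -0.53 in their mean and neutrophil markers by -0.33, both at the same smallest exact permutation p, and dendritic cell markers by 0.72. Of the 12 macrophage markers 3 rose and 6 fell. Csf1r, the receptor that macrophages need to survive, had a mean level of 7.67 in control and 6.65 with emodin. Dendritic cell markers counted 3 up, 1 down and 3 not called of 7 tested, with a median difference of 0.10. Their mean difference of 0.72 rests largely on Ccr7, the lymph node homing receptor, which rose from -2.31 to 2.71 and is also a classical activation marker. Siglech, Itgax and the neutrophil gene Elane were above background on all arrays of every group. T, NK, mast, eosinophil and endothelial marker means differed by -0.62 to 0.10 with exact permutation p-values of 0.0857 to 0.857, and no red cell marker was tested.

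**Figure D4:**
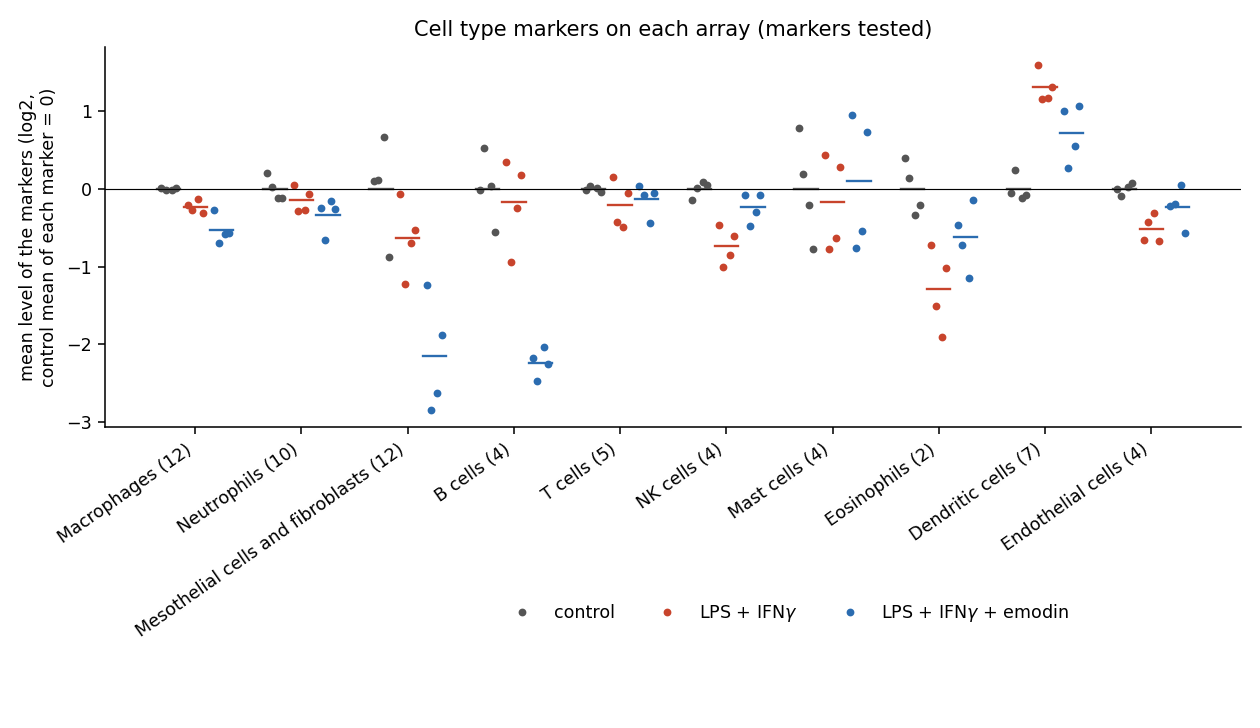
Mean level of the tested markers of each cell type on each array, with each marker set to 0 at its control mean (log2). Points are arrays, lines group means, and numbers in brackets the markers tested. B cell markers and markers of mesothelial cells and fibroblasts lie below all control arrays on the 4 emodin arrays, at means of -2.24 and -2.15.

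Cholesterol and fatty acid synthesis was the list with the lowest median: 28 of 30 tested genes fell with emodin, none rose, and the median was -2.62 against -1.70 for the stimulus alone. Of the 30, 22 were lower with emodin than with the stimulus alone and 5 higher. Idi1, the isomerase that makes isoprenoid building blocks, had levels of 4.90, 4.79, 4.48 and 4.60 in control, 1.80, 1.71, 1.89 and 1.87 with the stimulus alone, and -0.35, -0.23, -0.34 and -0.38 with emodin. The groups form 3 separate steps. Its difference from control was -5.02 ± 0.09 (limma adjusted p = 1.59e-12), and it stood 2.14 ± 0.09 below the stimulus alone. Hsd17b7, an enzyme of the late steps to cholesterol, was at least 31.5-fold lower than in control, and Dhcr7 fell by 5.30 ± 0.15. The fatty acid genes Scd2 and Elovl6 fell by 5.17 and 4.51, and Fasn was at least 5.49-fold lower. The regulators Srebf2 and Insig1 gave 0.24 and 0.17 and did not pass the test.

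**Figure D5:**
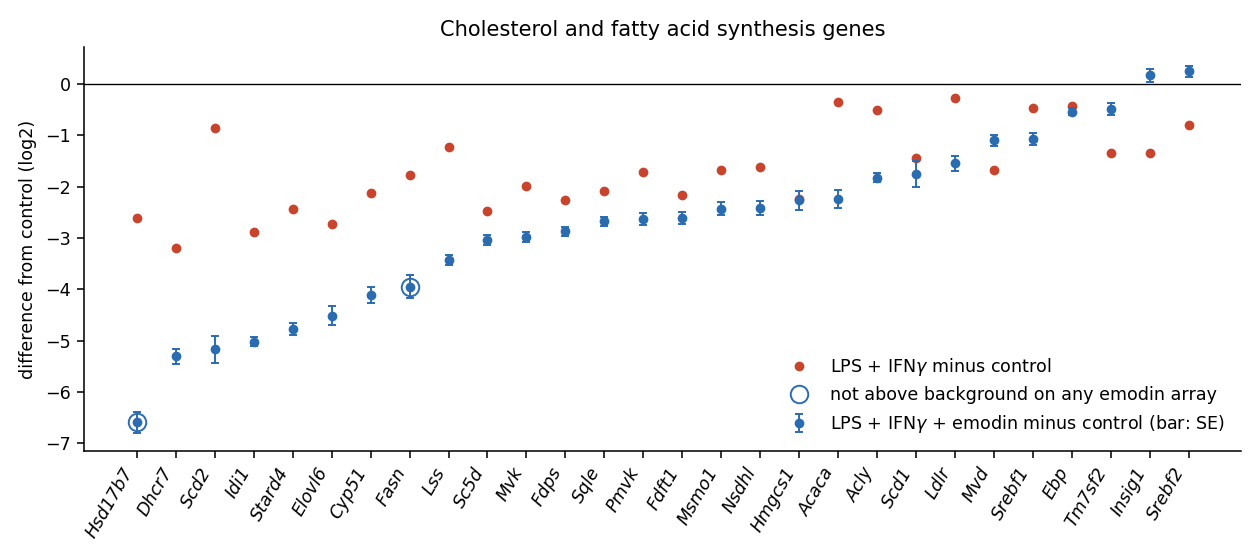
Difference from control (log2) of 28 of the 30 tested cholesterol and fatty acid synthesis genes, for the stimulus alone (red) and with emodin (blue, bars are standard errors, 4 arrays per group). Rings mark Hsd17b7 and Fasn, whose probes were not above background on any emodin array. The values with emodin run from -6.59 for Hsd17b7 to 0.24 for Srebf2.

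Of the LXR targets and lipid efflux genes 11 of 18 tested fell and 4 rose, with a median of -0.70. The stimulus alone lowered 12 and raised 4, with a median of -0.89. Against the stimulus alone 11 were higher with emodin and 5 lower. Lpl, the lipoprotein lipase, fell by 2.22 ± 0.15 and Lipa, the lysosomal acid lipase, by 1.60 ± 0.08, where the stimulus alone gave -1.77 and -1.82. Abca1, the cholesterol exporter, fell by 0.73 ± 0.18 and was 1.40 ± 0.18 below the stimulus alone, which had raised it by 0.67.

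Besides Cxcl5 and the sterol gene Hsd17b7, the 12 largest falls from control took in genes that the stimulus alone had already lowered. Rgs18, a regulator of G protein signalling in platelets and macrophages, was not above background on any stimulated array and at least 59.6-fold below control in the emodin group. Galnt9, a GalNAc transferase, and Fut7, the fucosyltransferase of selectin ligands, were at least 45.4-fold and 41.3-fold lower. Arhgef10l, a guanine nucleotide exchange factor, fell by 7.06 ± 0.18, Mamdc2 by 6.99 ± 0.20 and 0610040J01Rik by 6.24 ± 0.32. Thbd, thrombomodulin, an anticoagulant receptor for thrombin, fell by 6.36 ± 0.25, 2.53 ± 0.25 more than with the stimulus alone. Deptor, an inhibitor of mTOR, and Gm5086 were at least 22.8-fold and 25.4-fold lower.

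Of 19 alternative activation markers tested, 6 rose, 6 fell and 7 did not pass the test, where 39.8% of all genes rose and 38.2% fell. Their median of 0.26 turned to -0.22 without control replicate 4. Mrc1, the mannose receptor, had levels of 4.30, 4.51, 3.73 and 4.44 with emodin and 4.44, 3.93, 3.26 and 4.06 in control, which overlap, against 1.14, 1.16, 0.32 and 1.32 with the stimulus alone. Its difference from control was 0.32 ± 0.28 (95% interval -0.28 to 0.93) with emodin, not called, and -2.94 ± 0.28 without. With the replicate number as a block the difference of 0.32 was called (limma adjusted p = 0.0325). Same-numbered emodin and control arrays did not deviate together (r -0.186 to 0.0537), so that block has no pairing behind it here. Arg1, arginase 1, spread over more than 3 units on the emodin arrays and gave -0.65 ± 0.60, and Chil3, a chitinase-like protein, gave 0.43 ± 0.58, so neither passed the test. Without emodin replicate 1, Arg1 stood at -1.23 and was called lower (limma adjusted p = 0.0364), and without control replicate 4 Chil3 turned to -0.22. Clec10a, a galactose-binding lectin, fell by 3.49 ± 0.21 and F13a1, coagulation factor XIII, by 3.56 ± 0.52. The stimulus alone gave -4.42 and -5.24, and with emodin the 2 genes stood 0.93 and 1.68 above it. Tgm2, tissue transglutaminase, rose by 3.08, and Pparg, the lipid-sensing nuclear receptor, fell by 1.75 where the stimulus alone gave -4.42.

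Genes of resident peritoneal macrophages fell for 16 of 28 tested and rose for 3, with a median of -1.03. With dim members taken at their lowest fold, or at 0 where no fold is given, the median was -0.66. The stimulus alone lowered 17 and raised 5, with a median of -0.80. Against the stimulus alone 12 were higher with emodin and 13 lower. Gata6, the transcription factor that defines the large peritoneal macrophage, had levels of -2.59, -3.91, -3.13 and -3.03 with emodin and -0.56, -0.80, 0.11 and -1.29 in control. It fell by 2.53 ± 0.36 (limma adjusted p = 3.91e-05), 1.10 ± 0.36 below the stimulus alone. Cd93, a lectin-like receptor of myeloid and endothelial cells, fell by 3.35 ± 0.12, where the stimulus alone gave -4.25. F10, coagulation factor X, rose by 3.26 ± 0.08 at the brighter probe, while its other probe gave 0.27. Markers of mesothelial cells, another cell of the peritoneal cavity, fell as given above, and their part in these falls was not tested.

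Of 33 tested uptake and Toll-like receptors 13 rose, close to the 39.8% of all genes, and 16 fell, where all genes gave 38.2%. Tlr13, the sensor of bacterial ribosomal RNA, had levels of 0.83, -0.01, 0.61 and 0.74 with emodin, 6.27, 6.22, 6.29 and 6.30 in control, and 4.27, 4.41, 4.44 and 4.52 with the stimulus alone. It fell by 5.73 ± 0.15 (limma adjusted p = 2.8e-11). Tlr4, the receptor for LPS itself, fell by 2.91, while Tlr2, the receptor for bacterial lipopeptides, rose by 1.33. Clec4e, a lectin that recognises mycobacterial glycolipid, rose by 3.92 ± 0.14, with a difference of -0.08 ± 0.14 from the stimulus alone that was not called.

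Of 28 NRF2 targets and glutathione genes tested, 9 rose, among them Hmox1 and the ferritin genes Fth1 and Ftl1, and 16 fell. All genes gave 39.8% and 38.2%. Under quantile normalisation 5 rose and 19 fell. Nqo1, the quinone reductase usually taken as an NRF2 marker, had levels of -2.69, -3.18, -2.90 and -2.85 with emodin and -0.41, -0.31, -0.64 and -0.80 in control, a fall of 2.36 ± 0.15 (limma adjusted p = 2.88e-08). In the aryl hydrocarbon receptor pathway 3 of 10 tested genes rose and 5 fell, beside the 39.8% and 38.2% of all genes. Ahr itself rose by 2.86, while Cyp1b1, a xenobiotic-metabolising enzyme and target of the receptor, fell by 3.51 ± 0.35 where the stimulus alone raised it by 3.44 ± 0.35. Cyp1a1 was not tested, since in no group did all arrays detect it above background. Ugt1a6a, a glucuronosyltransferase on both lists, was at least 1.85-fold lower.

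Of 23 tested p53 targets 16 rose and 6 fell, with a median of 1.01 against 0.19 for the stimulus alone. Gdf15, a stress cytokine, had levels of 8.46, 8.36, 8.84 and 8.17 with emodin, 5.11, 5.05, 4.84 and 4.90 in control, and 5.48, 5.48, 5.39 and 5.22 with the stimulus alone. It rose by 3.49 ± 0.13 from control (limma adjusted p = 3.05e-10), and the stimulus alone gave 0.42. Fas, a death receptor, rose by 3.58 ± 0.10 and Cdkn1a, the cyclin-dependent kinase inhibitor p21, by 2.88 ± 0.11, with 0.56 and 0.39 more than with the stimulus alone. Gadd45a, a growth arrest gene, and Trp53 itself fell by 2.60 and 0.73.

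Cell cycle and mitosis genes fell for 17 of 28 tested and rose for 7, with a median of -0.62 against -0.09 for the stimulus alone. Cdk1, the kinase of mitotic entry, stood at -4.17, -3.99, -4.34 and -3.88 with emodin and -1.52, -1.63, -1.71 and -2.02 in control. It fell by 2.37 ± 0.16 (limma adjusted p = 3.92e-08), and the stimulus alone gave 0.30 ± 0.16, which did not pass the test. Cdc20, an activator of the anaphase-promoting complex, fell by 2.75 ± 0.16 and Ccna2, cyclin A2, was at least 4.47-fold lower. Ccne1, cyclin E1, rose by 3.65 ± 0.10, and by 3.69 with the stimulus alone.

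In the ATF4 and unfolded protein response list 16 of 30 tested rose and 9 fell, with Ddit4, an mTOR inhibitor, up by 3.33 ± 0.20 and Ppp1r15a, which restores translation after stress, up by 2.71 ± 0.07. Ppp1r15a stood 1.30 ± 0.07 above the stimulus alone (limma adjusted p = 2.51e-08). Heat shock protein genes rose for 15 of 17 tested, led by Hspa1a at 5.38 ± 0.21. Its difference of -0.62 ± 0.21 from the stimulus alone was called at a limma adjusted p of 0.02 and not with the replicate number as a block (0.0632). Apoptosis and cell death genes rose for 20 of 28 and fell for 4, or 13 and 4 under quantile normalisation, with Cflar, the inhibitor of caspase 8, up by 3.59 ± 0.17 and Casp4, the sensor of cytosolic LPS, up by 3.32 ± 0.07.

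Among AP-1, early growth response and Krüppel-like factors 20 of 30 tested rose and 7 fell. Ier3, an early survival gene, and Maff, a small Maf factor, rose by 3.47 ± 0.15 and 3.22 ± 0.10. Of 23 tested chromatin enzymes 13 rose and 4 fell, or 12 and 8 with the percentile over detected probes. Kdm6b, the H3K27 demethylase induced by LPS, rose by 3.88 ± 0.17, and the subunits Ezh2 and Suz12 of the opposing methyltransferase complex by 1.72 ± 0.10 and 1.38 ± 0.08, with 1.48 and 0.86 more than with the stimulus alone.

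Extracellular proteases and inhibitors rose for 15 of 29 tested and fell for 9, with a median of 0.35 against 2.12 for the stimulus alone. Under quantile normalisation 11 rose and 12 fell, with a median of -0.24. Cst7, cystatin F, rose by 7.07 ± 0.16 and was 3.49 ± 0.16 below the stimulus alone. Lysosome and autophagy genes rose for 20 of 32 and fell for 6 with a median of 0.45, but under quantile normalisation 9 rose and 14 fell with a median of -0.13. Sqstm1, an autophagy receptor, rose by 1.81 ± 0.09, Gaa, the acid glucosidase, by 1.66 ± 0.13 and Ulk1, the autophagy kinase, by 1.55 ± 0.12.

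Ribosomal protein genes show how far the scaling sets small shifts. With the 75th percentile 24 of 25 tested rose, by a median of 0.60, and under quantile normalisation 2 rose and 8 fell, by a median of -0.07. Rps3 gave 0.81 at the brighter probe and -0.33 at the other. Reference genes rose for 7 of 11 and fell for 2, with Gapdh up by 0.86 ± 0.11 and Pgk1 by 1.76 ± 0.10, and under quantile normalisation 3 rose and 4 fell. Gapdh then stood 0.18 above control and did not pass the test (limma adjusted p = 0.066). Iron handling genes rose for 7 of 15 and fell for 4, where all genes gave 39.8% and 38.2%. Tfrc, the transferrin receptor, fell by 2.62 ± 0.19, and ferroportin, Slc40a1, rose by 1.13 where the stimulus alone gave 0.04.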

How the data were processed

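The deposited scanner files, 1 per array, hold intensity values of a 1-colour Agilent mouse array with 62976 spots. The submitters' processing notes name Agilent Feature Extraction 10.7.3.1 as the software. The processed signal is a background-subtracted and spatially detrended intensity, per the file headers. A deposited table of log2 values was used only as an alternative. Its scale is not stated. It matched quantile-normalised, probe-centred log2 signal (Pearson r 0.981 to 0.995 with its best array, column medians -0.03 to 0.04), and for control its columns 1, 3 and 4 were closest to arrays 4, 1 and 3.

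Control spots and outlier flags (78 to 415 spots per array) were left out, log2 processed signal was centred on the 75th percentile of each array, and spots of a probe were averaged. Probes well above background on all 4 arrays of a group were kept (27375 of 55681). Each gene was represented by its probe with the highest mean level, giving 13168 genes, of which 3353 had several probes. Genes were named by matching the transcript accession of each probe in the scanner files, without its version, to the RefSeq table of build GRCm38.p6. This gave 27509 probes 1 symbol, and 28172 are unnamed here. A 12-array limma 3.58.1 fit (R 4.3.3) gave moderated tests with Benjamini-Hochberg adjustment over all 13168 genes. Slide, age and stimulation were confounded, so no slide block could be fitted. A fold given as "at least" sets the mean of the bright group against, on each dim array, the higher of the lowest signal well above background and the probe's own signal. For a single list score an exact two-sided permutation test over arrays was used, whose smallest p for 4 against 4 is 0.0286.

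Same-numbered arrays of both stimulated groups deviated together (r 0.15 to 0.283), which was taken from the data as pairing them. Differences and calls between these groups nevertheless come from the fit without a block, unless a block is named. For single genes and lists they were not repeated under other scaling or background correction. Same-numbered arrays of emodin and control did not deviate together (r -0.186 to 0.0537). The members and gene lists were chosen with earlier results of these data known. Named genes are a fixed set of markers, the 12 largest rises and falls without overlap, the 10 largest genes in each class, and up to 3 leading members of each list. Further list members named as examples were chosen after their values were seen. Some genes entered the fit and the counts of lists but are not reported here. Intended alternatives were other scaling, background correction, filters, replicate block, sex label, subsets of arrays and probe rules. Normexp with an offset of 50 used median signals, in place of the mean signals first intended. In tests on simulated data of these 13168 genes the fit recovered 46.2%, 86.2%, 98.2% and 100% of genes changed by 0.5, 1, 2 and 4 log2 units. Of the calls, 4.74% fell on unchanged genes. The simulation changed a small part of the genes in independent normal noise and held no slide difference. Its shares therefore do not carry over to these data, where most genes were called and slide moves with stimulation.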

Additional observations from a re-analysis of the deposited data

Results flagged for a closer look

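Of 373 groups of 4 arrays examined, 14 held 1 array whose level stood apart from the other 3 by more than Dixon's 95% critical value. Chance gives about 1 in 20 such groups, so the number of groups that stand apart is near or below what chance gives. The 2 widest gaps were in Xist, at -6.22 on replicate 3 of the stimulus alone, where the nearest array stood at 0.09, and at -6.26 on replicate 3 with emodin, where the nearest stood at 0.38.

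Among the arrays with emodin, replicate 1 stood apart for Casp4 at 7.62 against 7.48 on the nearest array and for Inhba at 7.66 against 7.24. Replicate 4 stood apart for Cdkn1a at 5.90 against 5.96, and replicate 2 for Cdo1 at 1.26 against 1.62. Among the control arrays, replicate 2 stood apart for Hspa1a at -2.05 against -1.59 and for Rpl5 at 7.19 against 6.56, and replicate 3 for Hspa9 at 4.81 against 5.11.

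Among the arrays of LPS and IFNγ alone, replicate 1 stood apart for Clec4e at 9.07 against 8.85, for Hcar2 at 5.73 against 5.35 and for Serpina3i at 3.59 against 3.32. Replicate 3 stood apart for Adora3 at -0.52 against -0.17, and replicate 4 for Rasd2 at -3.66 against -3.91.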

How the results depend on the processing

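The counts of genes higher and lower, remaining and new kept within 1.5 times their value under every alternative that was run, with 2 exceptions: without a filter on dim probes 8406 genes were called higher, and with normexp background correction 599 genes were new and lower with emodin. Leaving out each array in turn gave 5099 to 5273 genes higher and 4859 to 5075 lower, and the replicate block 5220 and 5013. The block left every count within 1.5 times its value. The median of all genes, 0.02 as reported, was -0.18 with the percentile over detected probes, -0.14 with quantile normalisation and 0.29 without a filter. Among the changes of named genes over these alternatives, 16 turned direction and 5 fell out of significance. Those 5 were Gapdh and Rps3 under quantile normalisation and the value table, and Rasgrp4 with the mean of its probes. Another 2 gained significance, Mrc1 with the replicate block and Arg1 without emodin replicate 1. Same-numbered emodin and control arrays did not deviate together, so the block gives no pairing for Mrc1.

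With quantile normalisation the medians of lists became -0.0608 for iron handling, -0.135 for lysosome and autophagy, -0.24 for proteases, -0.0651 for ribosomal proteins and -0.01355 for reference genes, and Chil3 differed by -0.0189. With the deposited value table they were -0.0633, -0.135, -0.251, -0.0765 and -0.0149, with Chil3 at -0.0287. With normexp Abcg3 differed by 0.0363, Flt1 by 0.20, Slamf6 by 0.42 and Xist by 0.12. With only probes above background on all 12 arrays the aryl hydrocarbon receptor list had a median of 0.0888. With the sex label as a covariate, or with the controls labelled female only, Chil3 and the alternative activation list stood at -0.67, and with array weights at -0.16. With the mean of the probes of a gene the alternative activation list stood at -0.15 and proteases at -0.25. Without the stimulated arrays numbered 3, Flt1 differed by 0.28 and Xist by 0.82. Leaving out 1 array at a time gave -0.27 to 0.28 for Flt1, -0.22 to 1.00 for Chil3, -0.22 to 0.49 for the alternative activation list and -1.62 to 0.82 for Xist. The causes of these turns were not tested. No slide block could be fitted, and genes near background have a bound only.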

Other observations

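Ddx3y and Eif2s3y, genes of the Y chromosome, were above background on 1 array of each stimulated group and on no control array. Those were the arrays numbered 3, where Ddx3y stood at -0.99 with emodin and -0.02 with the stimulus alone, and Eif2s3y at 1.66 and 0.76. On the 4 control arrays Ddx3y stood between -6.84 and -6.59.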
